A study of Homo sapiens with 6 samples.

Results

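The carbonic anhydrases of HT29 cells, a human colon adenocarcinoma line, were compared between cells treated with NS398, a drug that selectively blocks cyclooxygenase-2, the inducible enzyme that makes prostaglandins, and control cells. A probe set, the group of short array sequences that reads 1 transcript, was taken where the platform annotation named 1 of 9 listed carbonic anhydrase genes alone. This gave 20 of the 54675 probe sets of the array, and they belonged to 8 of 19775 genes. No probe set was named CA9 in the annotation used, so CA9 was not analysed here. Of the 6 samples, 3 were labelled NS398-treated and 3 control. Biotin-labelled cRNA made from the total RNA of each was hybridised on 1 HG-U133 Plus 2.0 array. The methods of the study describe 100 µM NS398 in DMSO for 72 h in serum-free medium, and 0.1% DMSO as control. HT29 is 1 established line. The study calls the samples of a group biological replicates, while the labels give no separate cultures, so p-values measure only the spread between these samples.

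Carbonic anhydrases are zinc enzymes that interconvert carbon dioxide and water with bicarbonate and protons, and they serve pH control and ion transport. CA1, CA2, CA7 and CA13 are cytosolic, CA5B is mitochondrial, CA4 is tethered to the cell surface by a lipid anchor, and CA12 spans the plasma membrane with its catalytic domain outside the cell. CA8 has lost a zinc-binding residue and does not hydrate carbon dioxide. In the colon, CA1, CA2, CA4 and CA7 belong to differentiated absorptive cells. CA12, like CA9, is known as a tumour-linked isoform that is often raised in carcinomas. Both classes are labels that need not exclude each other, and normal colon was not measured here.

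All differences are log2 NS398 minus log2 control, and directions follow the deposited labels. They are opposite to those of the study's list of raised transcripts, which has lower signals in the arrays labelled NS398. What the study's text says of single genes, CA7 among them, does not all run the way of that list, and the sources used here do not settle which direction is turned. Genes were tested with limma, with a variance prior that follows the signal level and Benjamini-Hochberg adjustment over all probe sets, and are called at an adjusted p under 0.05. Array medians of the linear signal were 65 to 80.2. Probe sets whose log2 signal averaged more than 7 (a signal of 128) are called bright and the others dim. Arrays of 1 group correlated across bright probe sets with a Pearson's r of 0.961 to 0.983, and arrays of different groups with 0.931 to 0.952. Of 11 colon epithelial markers, 9 exceeded this limit, with EPCAM at 26131 in NS398 and 25358 in control arrays, while CDX1 and CDX2 were dim in both groups. CEACAM5, KRT20 and LGALS4 of this list rose by 4.09, 1.15 and 0.38 on the log2 scale and VIL1 fell by 0.71. As the mean of all probe sets of the gene, CEACAM5 had a difference of 2.54 and VIL1 lost its call (-0.41, limma adjusted p = 0.222), and LGALS4 was called in 9 of 15 alternatives, with 0.26 after median centring (limma adjusted p = 0.205). The summed signal of the list was 165045 to 174375 in NS398 and 132768 to 150468 in control arrays. Of 7 measured erythroid genes, which mark red cells rich in CA1 and CA2, 1 exceeded the limit and 0 passed the test, with a summed signal of 368 to 504 in NS398 and 369 to 404 in control arrays. Of 7 leukocyte genes 2 exceeded it, LYZ among them, and their summed signal was 28851 to 33879 in NS398 and 25731 to 32579 in control arrays. Of 10 fibroblast genes 1 exceeded it and was not called. The 1 called gene, LUM, a matrix proteoglycan, was dim on average and rose (215 in NS398 and 45.5 in control arrays). Summed over the 10 genes, the signal was 1019 to 1206 in NS398 and 798 to 1144 in control arrays. For ACTB, the signal at the 3' end over that at the 5' end, which increases as RNA degrades, was 1.56 ± 0.13 in NS398 and 1.29 ± 0.03 in control arrays (SD, n = 3 each). The two-sided exact permutation test gave p = 0.1, and 3 against 3 arrays cannot give a smaller p. For GAPDH this ratio was 1.10 ± 0.09 in NS398 and 1.03 ± 0.06 in control arrays, with overlapping groups (exact permutation test, p = 0.5). The part of RNA quality in the differences below was not tested.

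The comparison asked which carbonic anhydrase transcripts differed between NS398-treated and control cells. CA12 was 2.62-fold and CA13 1.79-fold higher in NS398 arrays, and these 2 of the 8 genes passed the test, while 0 passed as lower. CA2 was slightly lower and did not pass, and CA1, CA4, CA5B, CA7 and CA8 were dim. Of all genes, each read from its brightest probe set, 5.23% were called higher, 4.85% lower and 10.1% in either direction. Among genes above a mean log2 signal of 7, which 3 of the 8 carbonic anhydrases exceeded, 17.7% were called. By probe set, 7 of the 20 were called, all of them higher, against 6.43% of all probe sets (3.26% higher and 3.17% lower). Of these 7, 6 read CA12, and probe sets of 1 gene are not independent measurements. The median difference was 0.70 over the 8 genes and 0.06 over all genes. The median of the 8 lay between CA7 (0.63) and CA1 (0.76), which were dim and not called. As 5 of the 8 genes were dim, it does not show a rise of the family. With limma's plain prior, which called 0.0759% of all genes and 0.0439% of all probe sets, 0 of the 8 carbonic anhydrases passed (2 had an unadjusted p under 0.05).

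**Figure D1:**
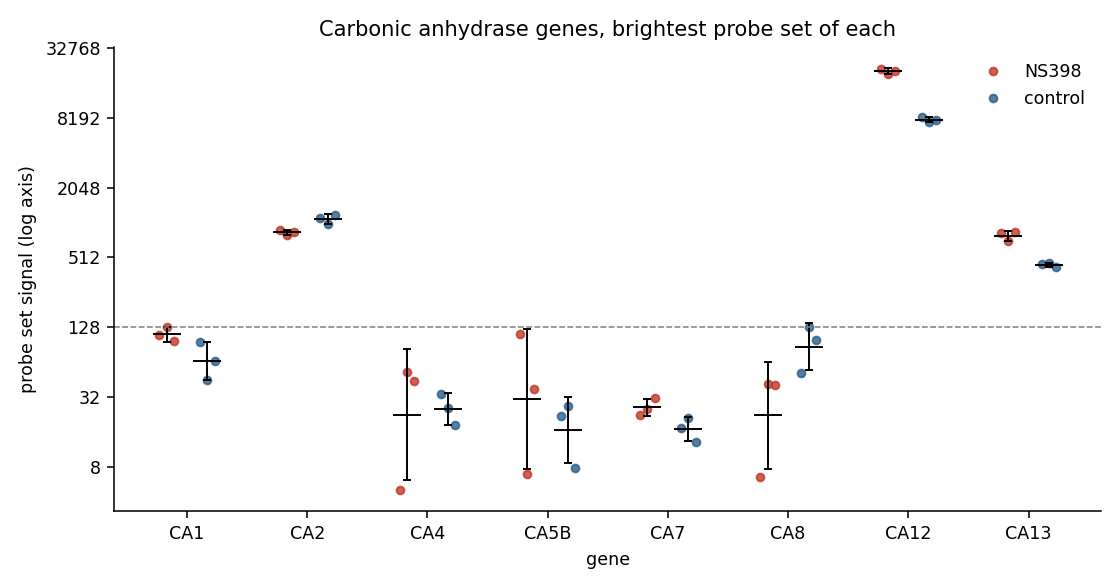
Signal of the brightest probe set of 8 carbonic anhydrase genes in each array (points, log axis) and the log2 mean ± SD of 3 NS398 (left of each pair) and 3 control arrays (right), and a dashed line at a signal of 128. CA12 stood at 20537 in NS398 and 7851 in control arrays and CA13 at 790 and 442, whereas the means of 5 genes lay below the line in both groups.

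CA12, whose product hydrates carbon dioxide at the outer face of the cell, was read by 7 probe sets. The brightest, 203963_at, had signals of 21505, 19401 and 20760 in NS398 arrays, against 8292, 7442 and 7844 in control arrays. The lowest NS398 array thus lay well above the highest control array. The difference was 1.39 ± 0.09 (SE, n = 3 each, limma adjusted p = 1.31e-05), with an SD within groups of 0.08 on the log2 scale in NS398 and 0.08 in control arrays. Among the 10668 genes above a mean log2 signal of 7, 2.86% had a larger difference than CA12 in either direction. With each array centred on its median, which was 0.12 higher on average in NS398 arrays, the CA12 difference was 1.27.

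The other probe sets of CA12 gave nearly the same size of difference over a wide range of brightness. Of the 7, 6 were called, with differences of 1.36 to 1.40 (2.57-fold to 2.64-fold). The called probe set 204509_at was dim, at 142, 192 and 135 in NS398 arrays and 51.4, 67.1 and 61.8 in control arrays (1.37 ± 0.33, limma adjusted p = 0.0335), and it kept the call in 5 of 13 alternatives. For 241230_at, the remaining one, the groups overlapped, with 104, 77.6 and 69.6 in NS398 arrays and 26.9, 105 and 51.2 in control arrays (0.65 ± 0.53, limma adjusted p = 0.585). Probe sets of 1 gene share their transcript and are not independent measurements, and those with the suffix x may also bind related transcripts. With limma's plain prior the smallest adjusted p of a CA12 probe set was 0.0706.

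**Figure D2:**
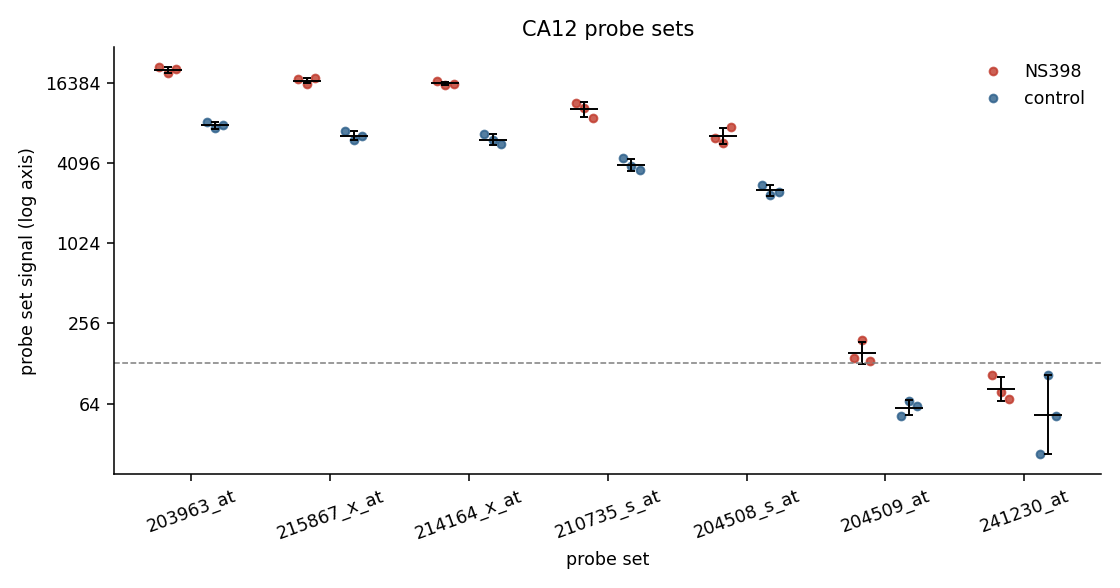
Signal of the 7 CA12 probe sets in each array (points, log axis) and the log2 mean ± SD of 3 NS398 (left of each pair) and 3 control arrays (right), and a dashed line at a signal of 128. The gap between the groups is of like height on the log axis for 6 probe sets, whose differences lie between 1.36 and 1.40, and the groups overlap for 241230_at.

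The 250 bases before the CA12 start site are shown because CA12 had the largest difference of the called carbonic anhydrases (RefSeq, GRCh38.p14, chr15:63381847-63382096, minus strand, written 5′ to 3′ in the direction of transcription). Capitals mark both matches to TGACNTCA, the letters of the cyclic AMP response element family.
CA12: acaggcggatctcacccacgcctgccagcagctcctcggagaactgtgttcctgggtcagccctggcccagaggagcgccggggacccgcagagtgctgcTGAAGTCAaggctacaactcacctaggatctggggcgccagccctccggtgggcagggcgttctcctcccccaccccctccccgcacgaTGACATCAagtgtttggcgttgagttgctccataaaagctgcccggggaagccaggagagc
The first match began 150 bases before the start site, on the opposite strand, and the second 61 bases before it. Letters were searched on both strands and were chosen with the sequence in view. They occurred in 6.87% of 35116 promoter windows of this length. ACGTG, the core of the hypoxia response element (18.5% of windows), TGATGNAA of the C/EBP-ATF element (3.14%), TGACNNNGC of the antioxidant response element (10.9%) and TATAAA (10.7%) had 0 matches in the CA12 window. A match describes letters only, and no binding was measured. CA7 and CA5B, the other analysed members with a window in the table, had 0 matches to all of these letters.

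CA13, a cytosolic isoform, was read by 2 probe sets. The brighter one, 231270_at, had signals of 827, 706 and 843 in NS398 arrays, against 448, 455 and 423 in control arrays. The groups did not overlap, and the difference was 0.84 ± 0.15 (SE, limma adjusted p = 0.00728), or 0.72 with centred arrays. The second, 235899_at, gave 166, 223 and 165 in NS398 arrays and 93.2, 105 and 111 in control arrays. Its difference of 0.83 ± 0.28 was of the same size but was not called (adjusted p = 0.114). Of the bright genes, 8.76% had a larger difference than CA13 in either direction.

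CA2, the cytosolic isoform with the highest turnover in the textbook order, had 1 probe set. Its signals were 881, 803 and 843 in NS398 arrays, against 1112, 993 and 1195 in control arrays. The groups were fully apart, yet the difference of -0.38 ± 0.14 (95% interval -0.68 to -0.09) did not pass (limma adjusted p = 0.140, unadjusted p = 0.0162). Centring the arrays gave -0.50. The adjusted p ranged between 0.0621 and 0.377 over 15 alternatives, and 0 of them called CA2.

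CA1, the most abundant carbonic anhydrase of red cells and a colonocyte isoform, had signals of 109, 130 and 98 in NS398 arrays and 96.1, 44.9 and 66.1 in control arrays in its brighter probe set. The groups were apart by a narrow margin, and the difference was 0.76 ± 0.39 (95% interval -0.10 to 1.62, limma adjusted p = 0.340). The second CA1 probe set was dimmer and its groups overlapped. CA13, CA1, CA3 and CA2 follow one another in this order on chromosome 8 in the RefSeq gene table. Of these neighbours, CA13 was called, CA1 and CA3 (0.47 ± 0.78, adjusted p = 0.816) had positive differences that did not pass, and CA2 had a negative one.

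CA7, a cytosolic isoform of colon and brain, was dim, at 22.8, 25.4 and 31.6 in NS398 arrays and 17.4, 21.3 and 13.3 in control arrays. Although the groups did not overlap, the difference of 0.63 ± 0.75 did not pass (limma adjusted p = 0.732). CA4, the lipid-anchored isoform, had signals of 5.1, 53.1 and 44 in NS398 arrays and 34.4, 25.8 and 18.5 in control arrays. Its NS398 arrays spanned a range that contained all control arrays, and its 2 probe sets had differences of opposite sign (-0.15 ± 0.97 and 0.52 ± 1.11). The mitochondrial CA5B had signals of 112, 7.1 and 37.8 in NS398 arrays and 22.2, 26.8 and 7.9 in control arrays, with overlapping groups (0.89 ± 1.05, adjusted p = 0.730). Its second probe set, 214082_at, was dimmer and its groups also overlapped (1.36 ± 0.94, limma adjusted p = 0.506). The 95% intervals of the brighter probe sets were -2.29 to 1.98 for CA4 and -1.42 to 3.21 for CA5B. They were too wide to tell a fall of either gene from a rise.

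CA8, the isoform without enzyme activity, had the lowest difference of the 8 genes. Its brightest probe set, 220234_at, gave 6.6, 41.8 and 40.8 in NS398 arrays and 52.2, 128 and 100 in control arrays. The groups did not overlap, with a difference of -1.97 ± 0.77 that did not pass (limma adjusted p = 0.187). The other CA8 probe sets gave -0.73 ± 0.69 with overlapping groups and 1.44 ± 0.86 with groups apart in the other direction, so the 3 probe sets do not share a sign. With an unadjusted p under 0.05 and a 2-fold change as thresholds (6.59% of all genes), CA12 was called higher and CA8 lower. Over all members, 6 of 8 brightest probe sets had groups that did not overlap, against 30.6% of all genes. By probe set this was 13 of 20, against 24.1% of all probe sets. CA12 holds 7 of the 20, which are not independent measurements.

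**Figure D3:**
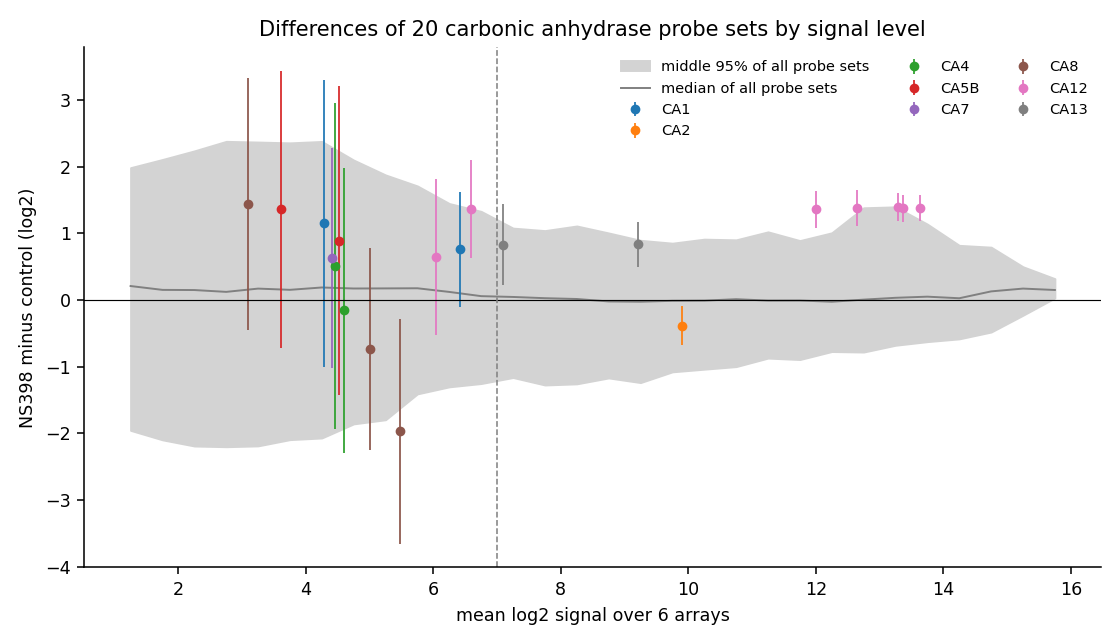
NS398 minus control difference on the log2 scale (y axis) against the mean log2 signal over 6 arrays (x axis) for 20 carbonic anhydrase probe sets, with 95% intervals of the limma fit (bars) over the middle 95% (grey band) and the median (grey line) of all probe sets at that level, and a dashed line at a mean of 7. The 5 bright CA12 probe sets have differences of 1.36 to 1.40 with narrow intervals, and the 12 probe sets left of the dashed line have an SE of 0.335 to 1.11.

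The tumour-linked and the colonocyte isoforms were then set side by side in each array, as changes from the control mean. CA12 alone stood for the tumour-linked isoforms. CA12 had changes of 1.45, 1.31 and 1.40 in the NS398 arrays, against 0.08, -0.08 and -0.0014 in the control arrays. The mean of the colonocyte isoforms CA1, CA2, CA4 and CA7 had changes of -0.37, 0.54 and 0.47 in the NS398 arrays, against 0.26, -0.09 and -0.17 in the control arrays. The colonocyte mean of the NS398 arrays thus lay on both sides of the control arrays, and the low value came from NS398 replicate 1, in which CA4 was 2.32 below its control mean. The CA12 change exceeded that of the colonocyte isoforms by 1.17 ± 0.57 (SD, n = 3) in NS398 arrays, with a range of 0.76 to 1.82, while the control arrays ranged between -0.18 and 0.17. Without NS398 replicate 1 this value was 0.85. Of the colonocyte isoforms only CA2 was above a mean log2 signal of 7, and against CA2 alone the CA12 change was larger by 1.77 ± 0.01 in NS398 arrays, with control arrays between -0.13 and 0.07. Since the isoforms were chosen with results known, these contrasts are a description and carry no test.

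**Figure D4:**
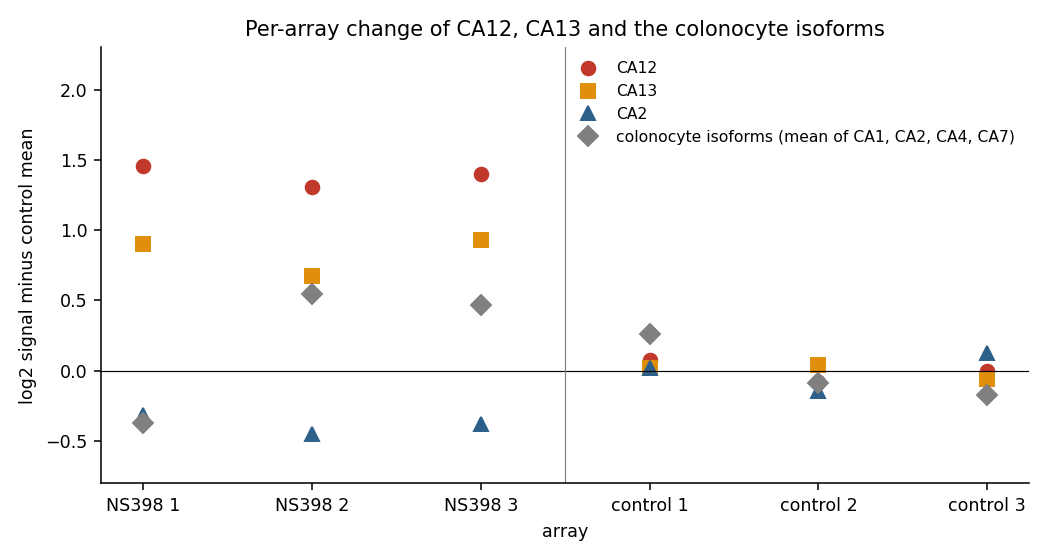
Change of log2 signal from the control mean (y axis) in each array (x axis, NS398 arrays left) for CA12, CA13, CA2 and the mean of the colonocyte isoforms. CA12 lies between 1.31 and 1.45 in all NS398 arrays and CA2 between -0.45 and -0.32, while the colonocyte mean varies between -0.37 and 0.54.

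The genes with the profile most like each bright member were looked up among the 10667 other genes above a mean log2 signal of 7, by Pearson's r over the 6 arrays. The points fall into 2 groups, so a high r mostly reflects the group difference, and the values are a description. For CA12 they were TRIM16 (r = 0.9997), SARS1, a seryl-tRNA synthetase (r = 0.9995), and the pseudokinase gene TRIB3 (r = 0.9993). For CA13 they were SLC25A36, PLA2G12A and GOT1 (r = 0.996 to 0.997). For CA2 they were CTBP2, NEMP1 and EIF4E2 (r = 0.991 to 0.995).

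The other 6 carbonic anhydrases (CA3, CA5A, CA6, CA10, CA11 and CA14) had a median difference of 0.48, and 0 of 6 were called. Only CA11, a relative without enzyme activity, exceeded a mean log2 signal of 7, at 200, 238.5 and 266 in NS398 arrays and 196, 156 and 152 in control arrays (0.48 ± 0.24, adjusted p = 0.316). Every NS398 array lay above every control array in this gene. For CA14, another membrane-spanning isoform, the difference was 1.06 ± 0.45 (adjusted p = 0.227). CA10, a relative without enzyme activity, had the largest difference of these genes and the opposite sign, at 13.5, 5.9 and 7.9 in NS398 arrays and 25.9, 37.7 and 25.6 in control arrays. All of these CA10 signals were dim, and although the groups were apart the difference of -1.77 ± 0.83 did not pass (limma adjusted p = 0.285).

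Bicarbonate made or consumed by carbonic anhydrases is moved by anion exchangers, cotransporters and channels. Of 19 such genes 2 fell and 0 rose, with a median difference of 0.25. The 2 calls are 10.5% of the list, near the 10.1% of all genes (4.85% called lower). Of the 19 genes 8 were bright. SLC4A4, the sodium bicarbonate cotransporter gene, had signals of 1672, 1622 and 1621 in NS398 arrays, against 2467, 2884 and 2457 in control arrays (-0.66 ± 0.11, limma adjusted p = 0.00544). CFTR, an apical chloride and bicarbonate channel gene, had 1270, 1701 and 1645 in NS398 arrays, against 2992, 2101 and 2307 in control arrays (-0.68 ± 0.16, adjusted p = 0.0296). In both genes the groups were apart. SLC4A4 kept its call in 13 of 15 alternatives, and lost it as the mean of its probe sets (-0.91, limma adjusted p = 0.0617) and with the plain prior. CFTR kept its call in 7 of 15, and with the mean of all its 6 probe sets the difference was -0.15. Of 11 measured genes of proton and lactate export, SLC16A7, a monocarboxylate transporter gene, rose to 746 in NS398 arrays, against 430 in control arrays (0.80 ± 0.17, limma adjusted p = 0.0156), and 0 fell. This 1 call is 9.09% of the list. SLC16A7 kept its call in 11 of 15 alternatives and lost it after median centring (adjusted p = 0.0754), as the mean of its probe sets (adjusted p = 0.0984) and without NS398 replicate 2 (adjusted p = 0.0910).

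CA12 and CA9 are known targets of hypoxia-inducible factors (HIF) in some tumours. Of 13 HIF pathway factors 1 fell (7.69% of the list called, against 10.1% of all genes). It was ARNT, the partner of the HIF alpha subunits (-0.74 ± 0.17, adjusted p = 0.0276, called in 7 of 15 alternatives). As the mean of its probe sets, ARNT had a difference of -0.41 and lost its call (limma adjusted p = 0.501). HIF1A stood at 5250 in NS398 and 5028 in control arrays (0.06 ± 0.10, adjusted p = 0.816). Of 34 HIF targets 3 rose and 2 fell, which is 14.7% of the list, and their median difference was 0.07. Of the 34, 29 were bright, and 17.7% of all bright genes were called. A part of HIF in the CA12 and CA13 differences was not tested. Control replicate 1 stood apart on this list: it was the highest control array in 28 of the 34 genes, and its summed signal was 245038, against 153753 and 161407 in the other control arrays and 187820 to 195880 in NS398 arrays. For NDRG1, a gene induced by hypoxia, the signals were 5654, 4625 and 4672 in NS398 arrays and 11011, 3146 and 3154 in control arrays. Without control replicate 1, 11 of the targets were called higher and 2 lower, with a median difference of 0.34. Without NS398 replicate 1, NS398 replicate 3 or control replicate 3, 1 was called higher and 0 lower, and without control replicate 2 the median was -0.14. The CA12 and CA13 differences were 1.43 and 0.85 without control replicate 1. VEGFA, the vascular growth factor gene, rose to 14786 in NS398 arrays, against 5778 in control arrays (1.36 ± 0.11, adjusted p = 5.62e-05). This direction follows the deposited labels and is opposite to what the study's text says of VEGFA. BHLHE41 rose by 1.09 and the hexokinase gene HK2 by 0.92, and ANKRD37 and INSIG2 fell by 0.85 and 0.62. BHLHE41, ANKRD37 and INSIG2 were called in 10 and HK2 in 9 of 15 alternatives. As means of their probe sets, HK2 had a difference of 0.60 and kept its call. BHLHE41 (0.80, limma adjusted p = 0.232) and ANKRD37 (-0.57, limma adjusted p = 0.537) lost theirs. INSIG2 lost its call with the replicate number as a block (limma adjusted p = 0.0578).

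Of 30 measured genes of colonocyte differentiation, 5 rose and 2 fell, with a median difference of -0.02. CEACAM7, an adhesion molecule of the upper crypt, rose to 916 in NS398 arrays, against 129 in control arrays (2.83 ± 0.23, limma adjusted p = 5.39e-05). The fatty acid binding protein gene FABP1, TSPAN7 and keratin KRT20 rose by 2.05, 2.03 and 1.15, and SELENBP1 fell by 0.88. The remaining calls were HSD17B2, which rose by 0.49, and VIL1. The colonocyte carbonic anhydrases had 0 of 4 genes called, against 7 of 30 (23.3%) in this list. Of all genes 10.1% were called, and of bright genes 17.7%. In the list 13 genes were bright, whereas of the 4 isoforms only CA2 was, so the shares compare genes of unlike signal level. The difference between these shares was not tested.

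**Figure D5:**
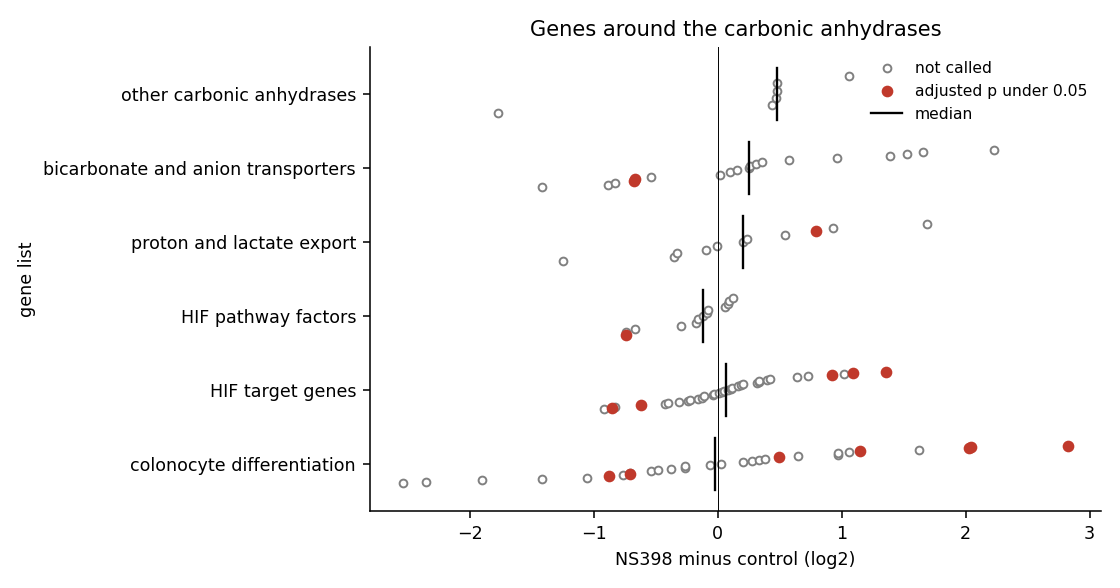
NS398 minus control differences on the log2 scale (x axis) of the genes in 6 lists (rows), with filled points for an adjusted p under 0.05, open points for the rest and a bar at the median of each list. The medians lie between -0.12 for HIF pathway factors and 0.48 for the other carbonic anhydrases.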

How the data were processed

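The authors deposited array intensity on a linear scale, summarised to 1 signal for every probe set and scaled to a trimmed mean of 500 on each array (top and bottom 2% removed). Affy is named in the submitters' processing notes, and its version was not given in the sources used here. The methods of the study describe gcRMA with quantile normalisation, which these values are not.

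The log2 of each signal was taken as it stood, without an offset or another normalisation. Of the probe sets, 41097 name 1 gene, 1801 several and 11777 none, and older symbols were replaced through their Entrez numbers with the RefSeq gene table. A gene was read from its probe set with the highest mean. All probe sets were fitted with lmFit and eBayes of limma 3.58.1 under R 4.3.3 (trend and robust estimation), and the model held treatment alone. The median prior degrees of freedom were 7.07, against 1.36 with the plain prior, which is given beside the main test. SAM, named by the methods of the study, rests on reshuffled arrays and was not run. Depth in arrays is limited by their number and by the spread of dim signals. The fit was tested on simulated data with 50 changes planted at each size and no other group difference. The main test recovered 11 of 50 changes of 2-fold (11 of 20 bright ones). At 4-fold it recovered 20 of 50 (17 of 18 bright ones). The plain prior recovered 0 of 50 even at 8-fold. These rates need not hold for the real arrays, where 3513 probe sets were called. With that many calls the adjustment is less strict than with the few planted changes. The simulated spread was also the one that the fit itself had estimated. A gene that did not pass may still differ.

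Named genes were all members, every called gene of the lists of other carbonic anhydrases, bicarbonate transporters and proton export, up to 5 called genes with the smallest p of each other list, and the 3 most similar genes of each bright member. HSD17B2 and the genes given with uncalled values beyond this rule were named after their values were seen. Members, lists and the test were chosen with earlier results of these data known. The planned contrast of CA9 and CA12 was made with CA12 alone. Alternatives were the plain prior, median centring, quantile normalisation, limits at a mean log2 signal of 4 and 7, an offset of 32, array weights, the replicate number as a block, a gene's mean over its probe sets, an unadjusted p under 0.05 with a 2-fold change, and leaving out each array. Plots were made in Python 3.11.15 with matplotlib 3.10.9.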

Additional observations from a re-analysis of the deposited data

How the results depend on the processing

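Of 15 alternatives judged by adjusted p, 14 called CA12 and CA13 each, with differences of 1.27 to 1.43 and 0.72 to 0.92. The plain prior called neither, with 0 members and 24 probe sets in all, against 3513 in the main test. With an unadjusted p under 0.05 and a 2-fold change, CA12 was called higher and CA8 lower, and CA13 (1.79-fold) was not called. The count of members called stayed at 2 without any 1 array, and over all probe sets the count was 1826 to 3984 when 1 array was left out (1826, 1896, 2340 and 1876 without NS398 replicates 1, 2 and 3 and control replicate 3). Median centring moved the split of all calls to 864 higher and 1943 lower, against 1782 and 1731, and left both members higher. With the replicate number as a block, 2 members and 2462 probe sets were called. Arrays of the same number did not deviate together (r = -0.01 for each pair), and 0 of 3 NS398 arrays was closest to the control array of its own number. The sign of 3 uncalled dim probe sets turned. The brighter CA4 probe set had 0.10 with the offset, 0.074 with array weights, 0.93 without NS398 replicate 1, 0.06 without control replicate 1 and 0.18 as the mean of both probe sets, and -0.76 to 0.93 without single arrays. The other CA4 probe set had -0.34 without NS398 replicate 1 and -0.16 without control replicate 1, within -0.34 to 1.68, and CA5B had -0.032 without NS398 replicate 1, within -0.032 to 1.96. The cause was not tested. The counts of the HIF targets without single arrays, given with that list, were added after seeing the data. The contrast of CA12 with the colonocyte isoforms was 0.85 to 1.38 without single arrays. Dim signals limit what can be said of CA1, CA4, CA5B, CA7 and CA8, which were called in 0 alternatives by adjusted p.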
